A study of Mus musculus with 12 samples.

Results

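Livers of AAV9-CSA-treated mice were examined for 10 glutathione S-transferase (GST) genes: the alpha-class genes Gsta1, Gm3776, Gsta2, Gsta3 and Gsta4, the mu-class genes Gstm1, Gstm2 and Gstm3, and the pi-class genes Gstp1 and Gstp2. The genes were chosen by name, and each name matched 1 row, so that 10 of 57180 genes in the count table are described. All 10 passed the filter on low counts that left 19350 genes for testing.

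RNA-seq of total RNA had been run on 12 livers from 4 groups of 3 mice, with each liver from a separate mouse, and p-values measure the spread between these mice. Livers are named by genotype, sex (F or M) and mouse number. The KO groups (KO_F_108, KO_F_112 and KO_F_123 for females, KO_M_118, KO_M_122 and KO_M_136 for males) were AAV9-CSA-treated CX mice at the humane endpoint. The Het groups (Het_F_111, Het_F_115 and Het_F_126, Het_M_119, Het_M_125 and Het_M_137) were their age-matched littermates, which were described as free of disease. Every mouse in both arms was Csa-/-, and every mouse had received the self-complementary AAV9 vector, in which the chicken beta-actin promoter drives the human CSA cDNA, into the cerebral ventricles as a neonate. The study's methods write the KO genotype as Csa-/- Xpa+/+ and the Het genotype as Csa-/- Xpa+/-, whereas CX mice are elsewhere described as Csa-/- Xpa-/-, so that the groups are called KO and Het here. Ages of single mice were not given. There were no untreated mice among these livers, so that no effect of the vector can be read from them, and genotype and disease at the endpoint cannot be told apart.

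GST enzymes join the tripeptide glutathione to reactive, electrophilic compounds, and the conjugates are then exported from the cell and broken down. Alpha, mu and pi classes are cytosolic and are abundant in liver. Alpha-class enzymes also reduce organic peroxides, Gsta4 is known for its activity toward the lipid peroxidation product 4-hydroxynonenal, mu-class enzymes act on epoxides and aromatic electrophiles, and the pi-class enzyme is the GST known to be more abundant in the liver of male than of female mice. Many GST genes are textbook targets of the transcription factor NRF2, which binds antioxidant response elements.

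The genes lie in clusters, and some are near-copies of one another. In GENCODE M39 on GRCm39, Gsta4 (chr9:78090056-78117763), Gsta1 (chr9:78137927-78149966), Gm3776 (chr9:78164411-78176451, named Gsta13 in that release) and Gsta2 (chr9:78238292-78263077) share a stretch of chromosome 9, whereas Gsta3 is on chromosome 1 (chr1:21310806-21335885). Gstm3 (chr3:107871012-107881730), Gstm2 (chr3:107889004-107893785) and Gstm1 (chr3:107919380-107925380) are neighbors on chromosome 3, and Gstp1 (chr19:4085405-4088068) and Gstp2 (chr19:4090285-4096023) are neighbors on chromosome 19. The coding sequences of Gsta1 and Gm3776 were 99.7% identical, with 2 differing bases in 669 (T25C and C591T, from Gsta1 to Gm3776, counted from 1 at the A of the start codon). Gstp1 and Gstp2 were 98.1% identical, with 12 differing bases in 630. Gsta2 was 97.6% identical to Gsta1, and Gstm1 was 89.4% identical to Gstm3 and 86.1% identical to Gstm2. The first 120 coding bases of the pi-class pair are shown because 6 of their 12 differences fall there, and reads from elsewhere in these transcripts often cannot tell the genes apart (capitals mark the differing bases):
Gstp1: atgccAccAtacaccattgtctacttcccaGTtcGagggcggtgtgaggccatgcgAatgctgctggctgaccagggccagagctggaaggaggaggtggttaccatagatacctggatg
Gstp2: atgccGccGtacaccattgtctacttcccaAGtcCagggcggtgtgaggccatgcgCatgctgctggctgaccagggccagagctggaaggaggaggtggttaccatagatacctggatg

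As a measure of this ambiguity, every stretch of 100 bases in each gene's canonical transcript was sought in the transcripts of all other genes. The study's reads were paired and longer than 100 bases, so that the shares can overstate how often a read pair cannot be placed. In Gm3776, 85.3% of stretches occurred exactly in another gene, as did 80.8% in Gsta1, 62.6% in Gstp2, 47.3% in Gstp1 and 33.3% in Gsta2. The share was 17.8% for Gstm2, 13.8% for Gstm3 and 7.18% for Gstm1, and no stretch of Gsta3 or Gsta4 was shared. The split of reads within the Gsta1, Gm3776 and Gsta2 set and within the Gstp1 and Gstp2 pair is therefore uncertain, and sums over each set are given beside the single genes.

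The 250 bases before the annotated start of the canonical transcript were read for both near-identical pairs. Their choice followed the values, in which Gsta1 and Gm3776 moved together, whereas in females Gstp2 was called higher and Gstp1 was not. That Gstp2 call was lost in 16 of 24 alternatives, and the difference between Gstp1 and Gstp2 was not tested. In both pairs the pattern cannot be told apart from the split of shared reads. The windows of Gsta1 and Gm3776 were 91.2% identical in alignment. The windows were searched on both strands for the antioxidant response element core (TGACNNNGC), a STAT site (TTCNNNGAA), an AP-1 site (TGANTCA), the xenobiotic response element core (GCGTG, added after the first matches were seen), a TATA box (TATAAA) and an HNF4-type site (TGGACTTTG). Antioxidant response element and AP-1 strings can overlap, and capitals mark the matches:
Gsta1 (GRCm39 chr9:78137677-78137926, plus strand): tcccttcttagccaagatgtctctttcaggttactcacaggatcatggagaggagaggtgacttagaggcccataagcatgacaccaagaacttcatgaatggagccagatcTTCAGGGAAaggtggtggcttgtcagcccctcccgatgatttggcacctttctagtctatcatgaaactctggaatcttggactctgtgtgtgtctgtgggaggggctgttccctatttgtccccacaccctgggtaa
Gm3776 (GRCm39 chr9:78164161-78164410, plus strand): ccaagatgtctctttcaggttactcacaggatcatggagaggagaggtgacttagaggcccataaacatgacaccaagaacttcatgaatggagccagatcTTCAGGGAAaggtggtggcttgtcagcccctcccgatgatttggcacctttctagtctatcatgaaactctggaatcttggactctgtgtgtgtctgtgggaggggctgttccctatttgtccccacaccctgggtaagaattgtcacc
Gstp1 (GRCm39 chr19:4088069-4088318, minus strand): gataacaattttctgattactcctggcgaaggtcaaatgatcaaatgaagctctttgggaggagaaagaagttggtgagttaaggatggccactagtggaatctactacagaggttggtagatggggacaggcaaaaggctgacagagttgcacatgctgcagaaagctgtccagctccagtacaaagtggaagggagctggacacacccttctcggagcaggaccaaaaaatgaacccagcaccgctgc
Gstp2 (GRCm39 chr19:4092274-4092523, minus strand): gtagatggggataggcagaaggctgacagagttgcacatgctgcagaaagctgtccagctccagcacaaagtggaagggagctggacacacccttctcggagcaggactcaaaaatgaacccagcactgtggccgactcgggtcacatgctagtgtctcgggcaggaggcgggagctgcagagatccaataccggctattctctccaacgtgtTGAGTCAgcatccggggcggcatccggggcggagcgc

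Gsta1 and Gm3776 each held 1 STAT-type match, at 138 and 149 bases before the start, and 7.7% of the 21770 protein-coding promoters of this length held one. The Gstp2 window held 1 AP-1-type match 37 bases before the start, as did 6.17% of all promoters, and the Gstp1 window held no match to any of the 6 motifs. These windows are offset and were 34.9% identical in alignment, because the end of the Gstp1 window resembles the beginning of the Gstp2 window. The Gstp1 bases that would face the Gstp2 match lie past the Gstp1 window and were not searched. No promoter difference between Gstp1 and Gstp2 can therefore be read from this match. The annotated Gsta2, Gsta4, Gstm3 and Gstp2 genes extend further upstream than the canonical starts used here. An antioxidant response element core was found in 1 of the 10 windows, that of Gsta3, against 9.69% of all promoters. The other matches were AP-1 and xenobiotic response element strings in Gsta4, a xenobiotic response element string in Gstm2 (31.2% of all promoters) and a TATA box string in Gsta2 (11.9%), and none of the 10 windows held the HNF4-type string (0.372%). A match is a string of letters and not a measured binding site.

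The livers yielded 30044812 to 43634073 estimated counts each (median 34491939). Xpa, the gene that differs between the genotypes, had 3.10 to 6.34 CPM (read counts scaled to 1 common total by the libraries' normalized sizes) in the 6 Het livers and 0.992 to 1.83 CPM in the 6 KO livers, which did not overlap. Ercc8, the mouse gene for CSA, had 5.10 to 8.68 CPM in Het livers and 14.8 to 34 CPM in KO livers. Every mouse was Csa-/- and had received the human CSA cDNA, and reads were mapped to the mouse genome. The Ercc8 values therefore cannot be read as expression of an intact mouse gene, and the origin of these reads was not tested. Albumin and the other hepatocyte markers summed to 55380 CPM or more in every liver. The noncoding RNAs Rn7s1 and Rn7s2 averaged 352500 and 167700 TPM (transcript abundance, which divides reads by length and sums to 1 total in every library), and TPM values are used here only for levels between genes. KO_F_108 had the lowest Gsta3 level of all livers, and the Gsta3 and Gstp2 results that rest on it are also given without it. In bulk liver RNA, fewer cells of a type and less RNA per cell cannot be told apart.

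Across both sexes, 6 of the 10 GST genes rose in KO livers, 1 fell and 3 did not pass the test (edgeR quasi-likelihood test, Benjamini-Hochberg adjusted p under 0.05 over all genes tested). For comparison, 22.4% of all tested genes were called in this contrast, 12.2% higher and 10.2% lower. The 6 that rose were Gsta1, Gm3776, Gsta2, Gstm1, Gstm2 and Gstm3, and the gene that fell was Gstp1. The median log2 fold change over the 10 genes was 0.73, against 0.018 over all genes tested. In every count of the 10 genes, Gsta1 and Gm3776 count separately, as do Gstp1 and Gstp2, although these near-copies share reads and are not independent. In 4 of the 10 genes (Gsta1, Gm3776, Gstm2 and Gstm3) every KO liver exceeded every Het liver in CPM, which was true of 4.72% of all tested genes. For Gstm2 and Gstm3 the gap was narrow. Their lowest KO livers were at 65.1 and 39.9 CPM, and their highest Het livers at 64.9 and 38.8 CPM. The plot of CPM by liver shows each of these values.

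**Figure D1:**
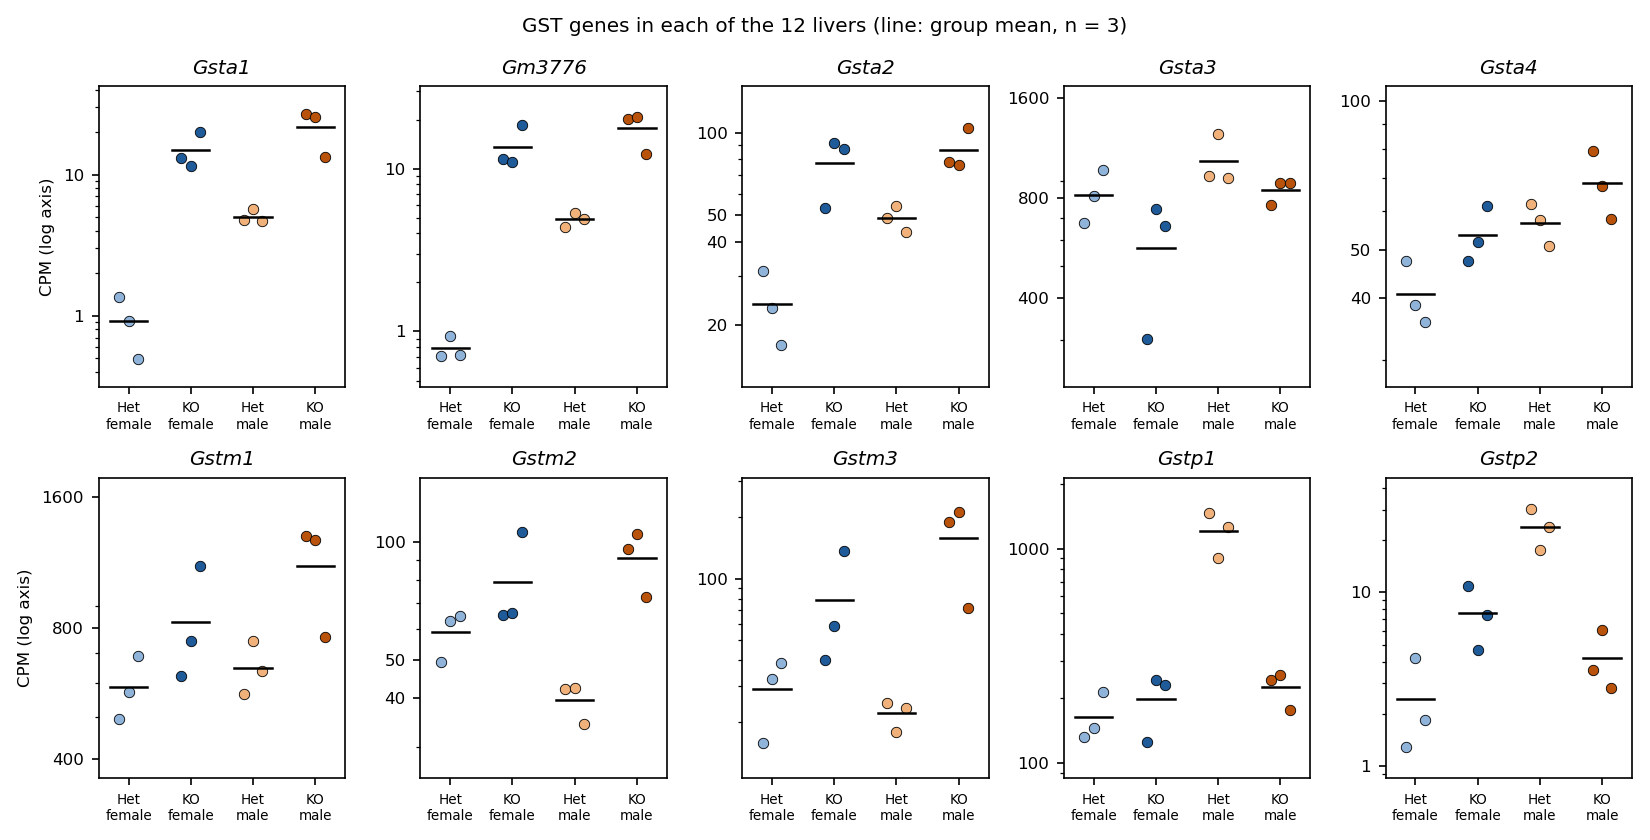
CPM of each GST gene in each liver on log axes, with points for the 3 livers of each group and a line at the group mean. Gsta1 and Gm3776 were lowest in Het females (0.497 to 1.35 and 0.704 to 0.944 CPM), and Gstp1 was 904.8 CPM or more in the 3 Het males and 256.7 CPM or less in all others.

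Gsta1 and Gm3776, alpha-class genes expressed at a low level in Het liver, had the largest increases of the 10 across both sexes and in females, whereas in males that of Gstm3 was larger. Gsta1 was 1.35, 0.918 and 0.497 CPM in Het_F_111, Het_F_115 and Het_F_126, and 13.2, 11.4 and 20.1 CPM in KO_F_108, KO_F_112 and KO_F_123. In males, it was 4.77, 5.69 and 4.67 CPM in Het_M_119, Het_M_125 and Het_M_137, and 26.7, 25.6 and 13.3 CPM in KO_M_118, KO_M_122 and KO_M_136. All KO livers lay above all Het livers, and Het males lay above Het females. In KO relative to Het livers, log2 expression was higher by 3.03 (SE 0.254, 8.16-fold, adjusted p = 3.23e-05) across both sexes, 3.95 (SE 0.378, adjusted p = 0.000294) in females and 2.10 (SE 0.341, adjusted p = 0.00485) in males.

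Gm3776 ran with Gsta1. It was 0.704, 0.944 and 0.713 CPM in Het females and 11.4, 11 and 18.5 CPM in KO females. In males, it was 4.4, 5.34 and 4.93 CPM in Het livers and 20, 20.9 and 12.3 CPM in KO livers. The order of the 4 groups was that of Gsta1. The log2 fold change was 2.94 (SE 0.185, 7.65-fold, adjusted p = 2.47e-06) across both sexes, 4.02 (SE 0.277, adjusted p = 3.67e-05) in females and 1.85 (SE 0.247, adjusted p = 0.00145) in males. The sum of Gsta1 and Gm3776, which does not depend on how reads were split between these genes, averaged 1.71 ± 0.441 CPM (SD, n = 3) in Het females, 28.6 ± 8.77 in KO females, 9.92 ± 0.973 in Het males and 39.6 CPM in KO males, a 16.7-fold and a 3.99-fold difference of means.

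Gsta2, a further close alpha-class relative, was the most abundant of these 3 genes. It was 31.5, 23.0 and 16.9 CPM in Het females and 53.2, 92.1 and 87.1 CPM in KO females, without overlap. In males it was 48.9, 54.0 and 43.6 CPM in Het livers and 78.2, 76.5 and 104.0 CPM in KO livers, again without overlap. Its log2 fold change was 1.26 across both sexes (SE 0.174, 2.40-fold, adjusted p = 0.00068) and 1.70 in females (SE 0.249, adjusted p = 0.00355). In males the difference of 0.82 (SE 0.244) missed the threshold (adjusted p = 0.0641), and 8 of 24 alternative settings called it. Gsta2 took 92.5% to 93.9% of the counts of Gsta1, Gsta2 and Gm3776 in Het females and 62.2% to 80.4% in KO livers of either sex, so that the share of Gsta1 and Gm3776 was larger in KO livers than in Het females. The sum of Gsta1, Gm3776 and Gsta2 averaged 25.5 ± 7.73 CPM (SD, n = 3) in Het females, 106 ± 25.1 in KO females, 58.8 ± 5.95 in Het males and 125.8 ± 3.48 in KO males, a 4.16-fold and a 2.14-fold difference of means, well under those of Gsta1 and Gm3776 alone.

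Gsta3 and Gsta4, whose transcripts share no 100-base stretch with other genes, did not pass the test. Gsta3, an abundant alpha-class gene of mouse liver, was 673.8, 813.3 and 975.1 CPM in Het females and 302.1, 742.0 and 660.0 CPM in KO females. In males, Gsta3 was 934.3, 1249 and 919.8 CPM in Het livers and 766.3, 891.7 and 888.7 CPM in KO livers. The male groups did not overlap and the female groups did, with KO_F_108 far below the others. The log2 difference across both sexes was -0.41 (SE 0.198, adjusted p = 0.16), with an interval of 2 SE from -0.80 to -0.012, and it was -0.27 without KO_F_108. In females alone it was -0.53 (SE 0.28, adjusted p = 0.232), and -0.24 without KO_F_108 (adjusted p = 0.501). Gsta4 differed by 0.33 across both sexes (SE 0.111, adjusted p = 0.0518), with group means of 40.8 CPM in Het females, 53.8 in KO females, 56.9 in Het males and 68.3 in KO males. It was just outside the threshold and passed it in 5 of 23 alternatives.

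The 3 mu-class genes rose across both sexes, by 0.64 to 2.15 on the log2 scale. Gstm1, the most abundant of them, was 494.1, 570.6 and 689.6 CPM in Het females and 622.2, 745.7 and 1110 CPM in KO females. In males, Gstm1 was 563.6, 747.1 and 636.8 CPM in Het livers and 1297, 1272 and 764.0 CPM in KO livers. The genotypes overlapped among females and not among males. Its log2 fold change was 0.64 (SE 0.179, 1.56-fold, adjusted p = 0.0251) across both sexes, and the call was lost without any 1 of 7 livers (Het_F_111, Het_F_115, Het_M_119, Het_M_137, KO_F_123, KO_M_118 or KO_M_122). It was not called in either sex alone (adjusted p = 0.214 in females and 0.0874 in males).

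Gstm2 was 49.3, 62.7 and 64.9 CPM in Het females and 65.1, 66.0 and 106.4 CPM in KO females, and KO_F_108 lay only just above the highest Het female. In males it was 42.1, 42.3 and 34.3 CPM in Het livers and 96.3, 105.2 and 72.6 CPM in KO livers, a wide gap. The log2 fold change of Gstm2 was 0.82 across both sexes (SE 0.148, adjusted p = 0.00312), 1.21 in males (SE 0.211, adjusted p = 0.00654) and 0.42 in females (SE 0.208, adjusted p = 0.198).

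Gstm3 had the largest increase of the mu class. It was 15.6, 32.1 and 38.8 CPM in Het females and 39.9, 58.9 and 137.3 CPM in KO females. In males, Gstm3 was 24.6, 17.7 and 23.4 CPM in Het livers and 189.2, 211.8 and 72.3 CPM in KO livers. KO livers lay above Het livers in each sex, and they varied among themselves, from 39.9 to 211.8 CPM. The log2 fold change was 2.15 across both sexes (SE 0.376, 4.43-fold, adjusted p = 0.00374), 2.85 in males (SE 0.547, adjusted p = 0.0145) and 1.45 in females (SE 0.521, adjusted p = 0.0979). The male call was lost without Het_M_125 or Het_M_137. The sum of Gstm1, Gstm2 and Gstm3 averaged 672.6 CPM in Het females, 983.7 in KO females, 710.6 in Het males and 1360 CPM in KO males.

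Gstp1, the main pi-class gene of the liver, fell in KO males. It was 1460, 904.8 and 1256 CPM in Het_M_119, Het_M_125 and Het_M_137, and 244.4, 256.7 and 176.7 CPM in KO_M_118, KO_M_122 and KO_M_136. In females, Gstp1 was 132.1, 146.0 and 213.0 CPM in Het livers and 124.5, 243.5 and 230.3 CPM in KO livers. The male groups were far apart, the female groups overlapped, and KO males lay within the range of the females but for 2 livers a little above it. The log2 fold change was -2.42 (SE 0.294, adjusted p = 0.000868) in males and 0.28 (SE 0.279, adjusted p = 0.539, interval of 2 SE from -0.27 to 0.84) in females. Across both sexes it was -1.07 (SE 0.199, adjusted p = 0.00367).

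Gstp2, the near-copy of Gstp1, was present at a much lower level and moved in opposite directions in the sexes. It was 30.1, 17.5 and 23.9 CPM in Het males and 3.60, 6.09 and 2.81 CPM in KO males, a fall (log2 fold change -2.5, SE 0.459, adjusted p = 0.0105) that was just lost without KO_M_118 (adjusted p = 0.0501). In females, Gstp2 was 1.3, 4.18 and 1.84 CPM in Het livers and 10.9, 4.64 and 7.43 CPM in KO livers, higher in KO by 1.63 on the log2 scale (SE 0.454, adjusted p = 0.044). The lowest KO female, KO_F_112, was close to the highest Het female, Het_F_115, and the female call was lost in 16 of 24 alternatives. Among these were the fits without KO_F_108, the highest KO female (log2 1.27, adjusted p = 0.157), and without Het_F_111, Het_F_126, KO_F_123, any 1 of the 3 Het males, KO_M_118 or KO_M_136 (adjusted p from 0.0515 to 0.127). Across both sexes Gstp2 was not called (log2 -0.44, SE 0.318, adjusted p = 0.352). Because 53.8% of the 100-base stretches of Gstp2 occur in Gstp1, which held 91.9% to 99.1% of the counts of the pair, the Gstp2 values depend on how few reads were assigned to it. The sum of Gstp1 and Gstp2 followed Gstp1, at 0.187-fold in males and 1.25-fold in females (KO against Het means).

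Within females, 4 of the 10 genes rose (Gsta1, Gm3776, Gsta2 and Gstp2), against a background of 11% of all genes called in either direction. KO females lay above Het females without overlap in 6 of the 10 genes, against 15.8% of all genes tested, and below them in 0 of the 10, against 14.7%. Within males, 4 rose (Gsta1, Gm3776, Gstm2 and Gstm3) and 2 fell (Gstp1 and Gstp2), against 7.45% of all genes called. KO males lay above Het males without overlap in 6 of the 10 genes (Gsta1, Gm3776, Gsta2, Gstm1, Gstm2 and Gstm3), against 16.8% of all genes tested. They lay below without overlap in 3 of the 10 genes (Gsta3, Gstp1 and Gstp2), against 15.4% of all genes tested, and Gsta3 among them did not pass the test.

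**Figure D2:**
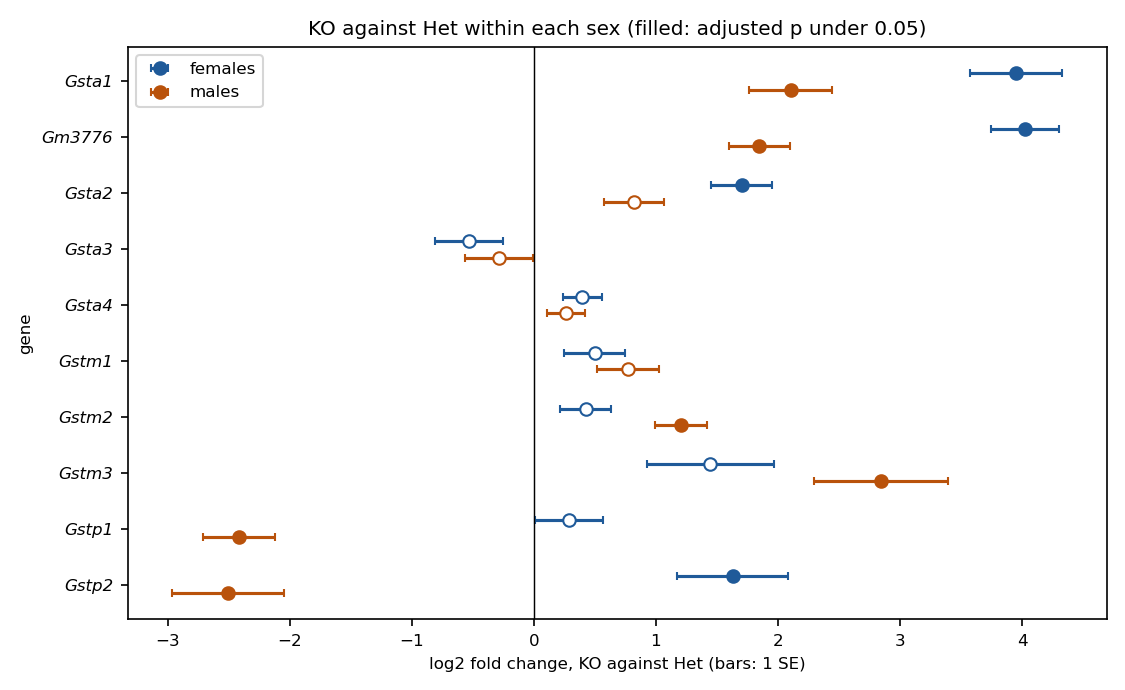
Log2 fold change of KO against Het with 1 SE for each gene, in females (blue) and males (orange); filled points passed the adjusted threshold. Gstp1 lay at 0.28 in females and -2.42 in males, and Gsta1 at 3.95 in females and 2.10 in males.

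The difference between the sexes was tested as an interaction. Gstp1 was 1 of 9 genes called among 19350 (0.0465%), with a KO effect lower in males than in females (log2 difference -2.702, SE 0.401, adjusted p = 0.0451). This call lay near the threshold and was lost in 12 of 23 alternatives, with the difference between -2.94 and -2.38 throughout. The livers whose removal ended it were Het_F_111, Het_F_115, Het_M_119, Het_M_137, KO_F_112 and each of the 3 KO males (adjusted p from 0.0896 to 0.141). The differences for Gstp2 (-4.13, SE 0.645, adjusted p = 0.0532) and Gm3776 (-2.18, SE 0.349, adjusted p = 0.0522) fell just short, and that for Gsta1 was -1.85 (SE 0.474, adjusted p = 0.306). The interaction was not called for any mu-class gene (Gstm1 0.28, Gstm2 0.78 and Gstm3 1.40, adjusted p from 0.48 to 0.827), so that a larger mu-class increase in males than in females was not shown.

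Among Het livers, 4 of the 10 genes were higher in males than in females: Gstp1 (log2 2.88, SE 0.299, adjusted p = 0.000576), Gstp2 (3.26, SE 0.476, adjusted p = 0.00735), Gsta1 (2.40, SE 0.363, adjusted p = 0.00757) and Gm3776 (2.55, SE 0.267, adjusted p = 0.000593). All 4 were higher in every Het male than in every Het female. In this contrast 0.92% of all genes were called in either direction and 0.46% were higher in males. The call for Gsta1 was lost without Het_F_115, and that for Gstp2 with the scaled-count table. Among KO livers, 0 of the 10 genes were called between the sexes by edgeR, against 0.0517% of all genes, and 0 by DESeq2. At an unadjusted p under 0.05 there was 1, Gsta4, with a log2 difference of 0.34. The KO difference between males and females was 0.18 for Gstp1 (interval of 2 SE from -0.38 to 0.74) and 0.55 for Gsta1 (from -0.10 to 1.2). These contrasts share livers with the KO against Het contrasts and are not independent of them.

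Per transcript length, the make-up of the 10 genes' RNA differed among the groups. The 10 genes together were 1447 to 2037 CPM in Het females, 2999 to 3175 in Het males, 1290 to 2438 in KO females and 2165 to 2934 CPM in KO males. Shares within each liver are given by TPM. Gstp1 made up 41.5% to 59.4% of the summed TPM of the 10 genes in Het males and 13.6% to 19.3% in the other groups. Gsta3 made up 44.0% to 45.7% in Het females and 22.0% to 34.2% in KO females, whereas Gstm1 made up 28.6% to 29.2% and 30.2% to 40.5%. KO_F_108 held both the lowest Gsta3 share and the highest Gstm1 share of the KO females, and without it the shares were 26.0% and 34.2% for Gsta3 and 30.2% and 38.2% for Gstm1. By mean share the order in Het females was Gsta3, Gstm1 and Gstp1, in Het males Gstp1, Gsta3 and Gstm1, and in both KO groups Gstm1, Gsta3 and Gstp1. The order of Gstm1 and Gsta3 was reversed in 1 of 3 livers of each KO group, with Gsta3 at 500.7 TPM and Gstm1 at 442.5 TPM in KO_F_112, and 654.4 and 495.7 TPM in KO_M_136. Gsta1 was at most 1.31% of the sum in any liver and Gm3776 at most 1.14%.

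**Figure D3:**
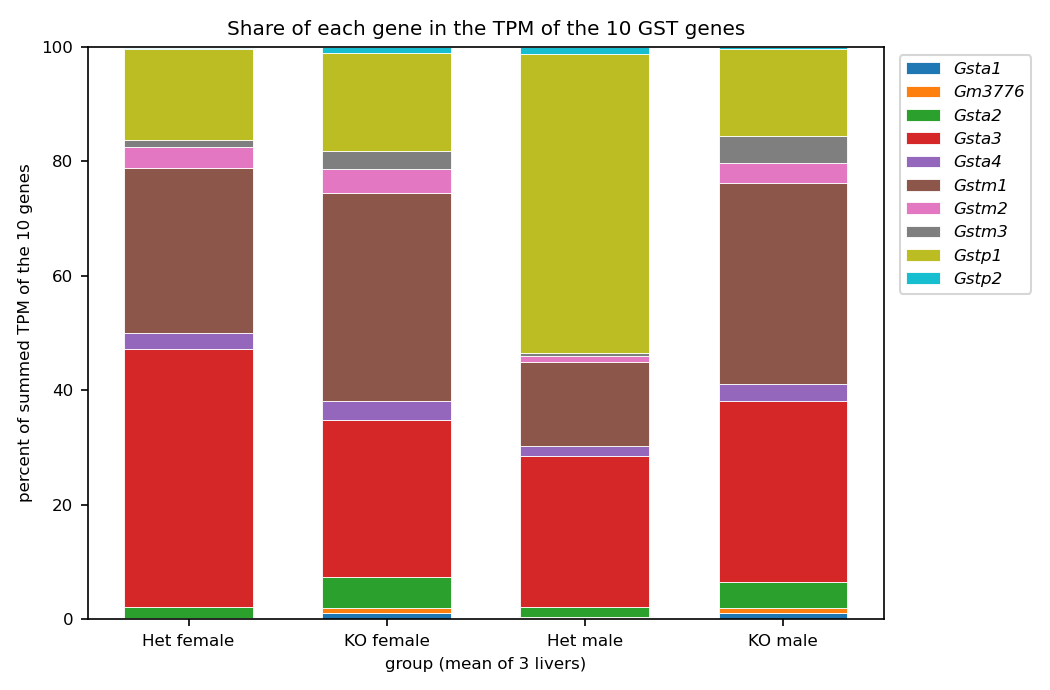
Mean share of each gene in the summed TPM of the 10 GST genes, as stacked bars for the 4 groups of 3 livers. Gstp1 averaged 52.2% in Het males and 15.3% to 17.1% in the other 3 groups, and Gstm1 averaged 14.7% in Het males and 35.1% in KO males.

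The genes with the profiles most like each class's first-numbered member were found by the root mean square (RMS) difference of log2 CPM, each centered on its own mean over the 12 livers. Nearest to Gsta1 (SD 1.88 over the livers) were Gm3776 (RMS 0.307), Tmprss4 (0.743) and Gsta5 (0.781). Nearest to Gstm1 (SD 0.463) were Tmem176b (0.197), the processed pseudogene Gstm2-ps1 (0.199) and Tmem176a (0.209). Nearest to Gstp1 (SD 1.25) were the processed pseudogene Gstp-ps (0.351), 4930455J16Rik (0.459) and Alas2 (0.474), the last of which encodes the erythroid form of the first enzyme of heme synthesis. Gm3776, Gsta5, Gstm2-ps1 and Gstp-ps share exact 100-base stretches with the gene they resemble, and the likeness of these pairs cannot be told apart from shared reads.

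Of 19 other GST genes in the tables, 17 were tested, and 5 rose and 2 fell in KO livers across both sexes. Gstt3, a theta-class gene, rose by 1.27 on the log2 scale (SE 0.221, adjusted p = 0.00266), and its 6 KO livers (124.7 to 268.2 CPM) lay above its 6 Het livers (43.2 to 119.1 CPM). Gsta5 rose by 2.21 (SE 0.374, adjusted p = 0.00214) at levels of 2.23 CPM or less, so that its fold rests on few reads, and Gstm5 by 0.59 (SE 0.124, adjusted p = 0.00633). Mgst1, the microsomal GST that is abundant in liver, fell by 0.64 (SE 0.125, adjusted p = 0.00471), and Gstm6 fell by 0.60 (SE 0.198, adjusted p = 0.0476). The median over the 17 genes was -0.097.

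Lists of genes around glutathione were read in the same contrast. Of 13 genes of glutathione synthesis and precursor supply, 7 rose and 0 fell. Among those that rose were the amino acid transporters Slc1a5 (1.1, SE 0.171, adjusted p = 0.00136) and Slc1a4 (0.94, SE 0.171, adjusted p = 0.00323) and the methionine adenosyltransferase Mat1a (1.2, SE 0.191, adjusted p = 0.00154). These 3 supply precursors. The synthesis enzymes, picked out after their values were seen, were mixed. Mean CPM in Het and KO livers was 254.1 and 198.7 for Gclc, 158.5 and 136.8 for Gclm, and 51.7 and 69.6 for Gss. Neither Gclc nor Gclm was called. Of 13 genes of glutathione reduction and peroxidases, 5 rose and 3 fell, with the glutathione peroxidase Gpx2 higher (2.30, SE 0.336, adjusted p = 0.00062) and Gpx1, the abundant liver peroxidase, lower (-0.68, SE 0.171, adjusted p = 0.0158). Gpx2 was 0 to 0.128 CPM in Het livers and 0.406 to 0.634 CPM in KO livers, so that its fold rests on few reads. Gpx1 was 987.5 to 1236 CPM in Het livers and 367.3 to 863.6 CPM in KO livers. The list moved in both directions. Of 22 genes of conjugate export and breakdown, 3 rose and 6 fell, with the exporter Abcc4 higher (1.40, SE 0.168, adjusted p = 0.000315) and the N-acetyltransferase-family gene Nat8f1 lower (-1.78, SE 0.287, adjusted p = 0.00219).

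Of 14 NRF2 targets without GST genes, 9 rose and 5 were not called, with log2 differences from -0.37 to 2.21 over the list. Those with the smallest p were the quinone reductase Nqo1 (2.21, SE 0.117, adjusted p = 7.1e-07), Abcc4 and Htatip2 (1.04, SE 0.145, adjusted p = 0.000712). Nqo1 was 4.57 to 11.6 CPM in Het livers and 25.7 to 40.9 CPM in KO livers. Of 12 targets of the nuclear receptors CAR and PXR, 4 rose and 1 fell, with Akr1b7 highest (4.20, SE 0.302, adjusted p = 5.95e-06) and Ces2a lower (-1.40, SE 0.198, adjusted p = 0.000765). Of 13 regulators linked to GST genes, 3 fell, namely Cebpa (-1.1, SE 0.149, adjusted p = 0.000586), Ppara (-1.37, SE 0.225, adjusted p = 0.00207) and Rxra (-0.37, SE 0.107, adjusted p = 0.0264). Nfe2l2, which encodes NRF2 and was singled out after its values were seen, was not called at -0.40 (SE 0.171, adjusted p = 0.111).

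**Figure D4:**
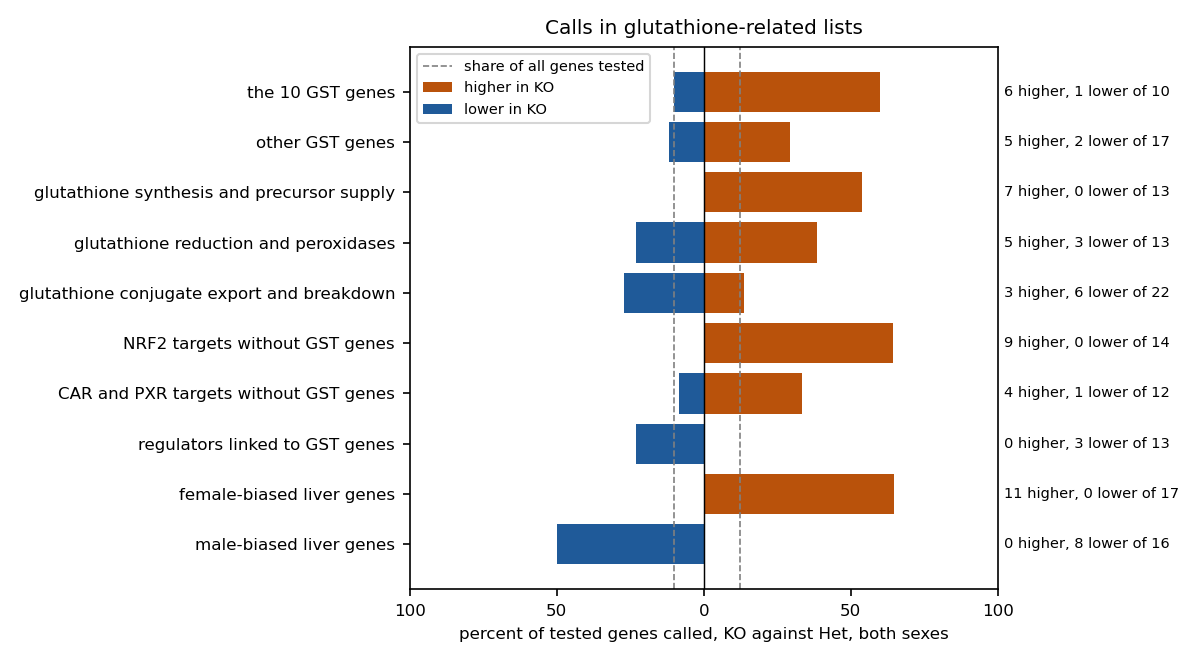
Percent of tested genes called higher (right) and lower (left) in KO against Het livers across both sexes for each list, with counts beside each bar and dashed lines at 12.2% and 10.2% for all genes. The 10 GST genes had 6 higher and 1 lower, and the NRF2 targets had 9 higher of 14.

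Because the pi-class genes differ between the sexes in Het livers, lists of sex-biased liver genes were read beside them. Of 16 tested male-biased genes, 8 fell across both sexes. In males 9 fell, and in females 5 fell and 1 rose. The summed level of the male-biased list was 10890 to 11590 CPM in Het males and 1094 to 1497 in KO males. It was 285.8 to 940.0 CPM in females of either genotype. Of 17 female-biased genes, 11 rose across both sexes. In males 13 rose, whereas in females 1 rose and 2 fell. Of all genes tested, 12.2% were called higher and 10.2% lower across both sexes, 4.47% and 2.98% in males, and 5.94% and 5.1% in females. The summed level of the female-biased list was 19.7 to 63.9 CPM in Het males and 1491 to 2004 CPM in KO males. It was 1187 to 5218 CPM in Het females and 3786 to 6552 in KO females. Gstp1 and Gstp2 were lower in KO males in the same livers. Gsta1 and Gm3776, which were also higher in Het males than in Het females, were higher in KO males (log2 2.10 and 1.85). The part of the shift in sex-biased genes in these GST results was not tested.

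Markers of other liver cells were read beside the GST genes. The 8 cholangiocyte markers summed to 16.6 to 53.1 CPM in females and 31.4 to 61.7 CPM in males, and 0 of 7 tested were called by edgeR (0 at an unadjusted p under 0.05 and 0 by DESeq2). Of 6 Kupffer cell and macrophage markers 3 rose (sum of 89.7 to 248.0 CPM in Het livers and 132.4 to 413.7 in KO livers). Of 8 stellate and fibroblast markers 2 fell (249.6 to 453.8 and 126.4 to 273.1 CPM), and of 6 sinusoidal endothelium markers 3 fell (168.3 to 314.4 and 121.1 to 212.2 CPM). Of 3 tested neutrophil markers 1 rose, with Ly6g, which defines them, at 0.0292 CPM or less in every liver, and 0 of 6 lymphocyte markers were called by edgeR (0 at an unadjusted p under 0.05 and 0 by DESeq2). Of 8 hepatocyte markers 2 fell (Ttr and Fabp1), of 12 pericentral hepatocyte genes 1 rose and 6 fell, and of 12 periportal genes 1 rose. Their part in the GST values was not tested.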

How the data were processed

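Total RNA was extracted from 12 livers with TRIzol and made into ribosomal-RNA-depleted stranded libraries. Per the study's methods and the submitters' processing notes, the authors mapped reads to GRCm39 with STAR 2.7.9a and estimated counts per gene with Salmon 1.10.1. The deposited expected counts (estimated counts, 12% of them not whole) come as raw, scaled and length-scaled tables, and a deposited table gives TPM. The members and gene lists were chosen with earlier results of these data known.

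Counts were filtered (at least 5 reads, at the median library size, in at least 3 livers) as deposited, a choice settled after the same filter on rounded counts had been seen. They were then rounded and fitted with edgeR 4.0.16 in R 4.3.3 (quasi-likelihood test, TMM scaling, prior count 2, robust, a mean for each of the 4 groups). The newer quasi-likelihood method was used. The study lists only the prior count and the robust option as nondefault settings of this fit and does not name the method. With the older method, run as an alternative, 4175 genes were called across both sexes against 4330, and no call of the 10 genes changed. Benjamini-Hochberg adjustment ran over all 19350 genes at a threshold of 0.05. SE is the absolute log2 fold change divided by the square root of F. Replicates are separate mice. Named genes were all 10 members, up to 3 called genes in each direction of each list by smallest p, the 3 nearest profiles of Gsta1, Gstm1 and Gstp1, and Xpa and Ercc8. Of 21 other GST symbols listed, 19 matched. DESeq2 1.42.0, limma 3.58.1 on log2(TPM + 1) and log2(TPM + 0.1), other scalings, filters and count tables, 6 livers alone and each liver left out were alternatives. The fit was tested on simulated data for KO against Het across both sexes: of 200 changed genes, 72.5% were called at a log2 fold of 1 (18967 genes) and 96% at 2 (19002 genes). Sequences and gene models came from GRCm39 and GENCODE M39, and identities from global alignment with Biopython. Counts of 0 allow up to 3 reads, and precision is limited by 3 livers a group.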

Additional observations from a re-analysis of the deposited data

Results flagged for a closer look

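Gstp1 was flagged because its KO effect differed between the sexes by the interaction test, by -2.70 on the log2 scale (SE 0.401, adjusted p = 0.0451, edgeR quasi-likelihood test), lower in 3 of 3 KO males than in any Het male while the female groups overlapped. Gstp2 was flagged because every KO female lay above every Het female and every KO male below every Het male. Its interaction of -4.13 (SE 0.645) missed the threshold (adjusted p = 0.0532), and the female values rest on 45.6 to 352.5 estimated counts a liver.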

How the results depend on the processing

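Across 23 or 24 alternatives a contrast, the number of the 10 GST genes called kept within 1.5 times its main value in every contrast but the interaction (6 to 8 genes across both sexes, 3 to 5 in females, 5 to 8 in males, 3 to 5 between Het sexes and 0 between KO sexes). The interaction gave 1 gene, against 4 with DESeq2, 3 with relative log expression scaling, 3 with at least 10 reads in every liver, 0 with library size only, length-scaled counts or scaled counts, and 0 to 3 with each liver left out. It was 0 without Het_F_111, Het_M_119, Het_M_137, KO_F_112, KO_M_118, KO_M_122 or KO_M_136, and 3 without KO_F_123. Applying the filter to rounded counts, an alternative added after seeing the data, changed no call of the 10 genes, while calls over all genes for the interaction went from 9 to 15. Of the single genes' values, 1343 stayed on the same side, 40 lost and 28 gained a call, and 9 changed sign, none of which had been called: Gsta3 interaction -0.0503 without KO_F_108 (to 0.485 without other livers), Gsta4 interaction 0.011 with library size only and 0.021 and 0.020 with limma at pseudocounts of 1 and 0.1, Gstm1 between Het sexes -0.051 with both, Gsta2 between KO sexes -0.064 without KO_F_108 and -0.0105 without KO_M_136 (to 0.297), and Gstp1 between KO sexes -0.076 without KO_F_108 (to 0.348). The causes were not tested. Calls over all genes were 4330 across both sexes; in females 2135 against 486 from 6 livers alone, in males 1441 against 2260 with DESeq2, for the interaction 9 against 162 with DESeq2, 48 and 30 with limma, 18 with relative log expression scaling and 17 with at least 10 reads in every liver, between Het sexes 178 against 550 with DESeq2 and 100 with at least 10 reads in every liver, and between KO sexes 10 against 315 and 0 by the same settings and 17 with limma. With each liver left out these totals ran from 844 to 2720 in females, 539 to 1876 in males, 4 to 90 for the interaction, 96 to 232 between Het sexes and 6 to 284 between KO sexes. The Het mice were littermates of KO mice, but the litter of each mouse was not given. Livers could therefore not be paired or grouped by litter, and shared litters were not modeled. Depth limits Gsta1, Gm3776 and Gstp2 in Het females, where estimated counts were 23.2 to 163.9 a liver.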
